A study of Mus musculus with 4 samples.

Results

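The genes of TGF-beta and activin signaling described here were chosen by name, with earlier results of these data known. They were the 4 ligand genes *Tgfb1*, *Tgfb2*, *Tgfb3* and *Inhba*, the 2 receptor genes *Tgfbr1* and *Tgfbr2*, the 2 inhibitor genes *Fst* and *Smad7*, and the target gene *Ctgf*. All 9 were among the 24346 gene symbols listed for each library, and all 9 were among the 15896 genes with a mean of at least 0.1 FPKM that were tested. FPKM scales the fragments counted in a gene to the length of its exons and to the mapped fragments of the library. Levels can thus be set side by side between genes and between libraries, but only approximately. The summed FPKM still differed between libraries, from 630272 in Cont-IMQ replicate 2 to 702218 in 7KC-IMQ replicate 2.

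Gene expression was measured by RNA sequencing of dorsal skin in 4 libraries from male C57BL/6 mice. All mice were 8 weeks old when a high-fat, high-cholesterol, high-sucrose diet with bile salt (the NASH diet) was begun, received it for 3 weeks, and then had 5% imiquimod (IMQ) cream on the skin for 1 day. The 2 libraries of the Cont-IMQ group came from mice on the NASH diet, and the 2 libraries of the 7KC-IMQ group from mice whose NASH diet also contained the oxysterol 7-ketocholesterol (7KC). Imiquimod is an agonist of Toll-like receptor Tlr7 that induces psoriasis-like dermatitis, and as every library came from IMQ-treated skin, the comparison is of diets within dermatitis. Nothing in the labels says whether each library was made from one mouse, so p-values measure only the spread between these libraries. The tissue label was met by the markers of skin, with *Krt5* between 2544 and 3062 FPKM and *Krt14* between 4132 and 5700 FPKM. The samples also held muscle, with *Acta1* between 2106 and 3133 FPKM. Depth, which is not part of the files, was estimated from the steps of low values at 14960000 to 16200000 reads per library. The summed level of 10 genes of growing hair follicles differed widely between the Cont-IMQ libraries, with 98.7 FPKM in replicate 1 and 1331 FPKM in replicate 2. The 7KC-IMQ libraries lay between them, at 379 and 333 FPKM. Below, the 2 values of a group are given in the order of replicates 1 and 2, with those of Cont-IMQ skin first.

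TGF-beta ligands are secreted in a latent form, and after activation they bind a receptor of the type II kind (*Tgfbr2*), which recruits and phosphorylates one of the type I kind (*Tgfbr1*). The receptors phosphorylate Smad proteins, which enter the nucleus and control target genes such as *Ctgf* and, as a negative feedback, *Smad7*. Activin A, a dimer of the inhibin beta A chain encoded by *Inhba*, signals through activin receptors to the same Smad proteins and is neutralised by follistatin, the product of *Fst*. In skin, TGF-beta restrains the division of keratinocytes, promotes the production of matrix by fibroblasts and takes part in the differentiation of Th17 and regulatory T cells, and activin is known for its role in wound repair.

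No difference between the groups beyond the spread between replicates was detected in any of the 9 genes. In limma, which was fitted to log2(FPKM + 1) over all genes tested, 0 of the 9 genes passed an adjusted p-value of 0.05 and 0 of the 9 had an unadjusted p-value under 0.05. Over all genes tested these shares were 0.00629% and 13%. The adjusted p-values of the 9 genes lay between 0.531 (*Ctgf*) and 0.989 (*Tgfb3*). Their median difference, 7KC-IMQ minus Cont-IMQ, was 0.013 on the log2(FPKM + 1) scale, against -0.0056 over all genes tested. In 1 of the 9 genes, *Ctgf*, the groups did not overlap, whereas 46.8% of all genes tested were without overlap. With 2 libraries against 2, a two-sided exact permutation test cannot give a p-value below 0.333, so the intervals of the differences are given.

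**Figure D1:**
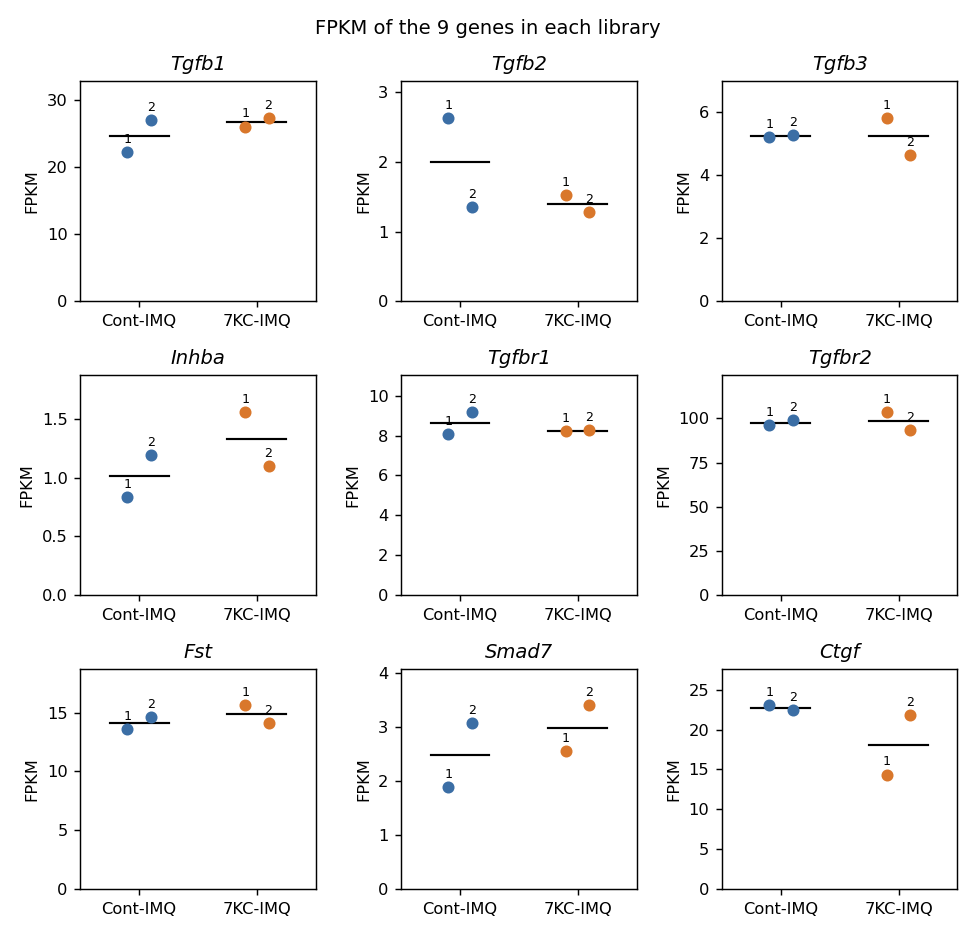
FPKM (vertical axes, from 0) of the 9 genes in the 2 Cont-IMQ (blue) and the 2 7KC-IMQ (orange) libraries, numbered by replicate, with the mean of each group as a black line. The groups overlap in 8 of the 9 genes, and in *Ctgf* 7KC-IMQ replicate 1 (14.4 FPKM) lies below the other 3 libraries.

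The levels of the 9 genes spanned a wide range. *Tgfbr2* was the most abundant at a mean of 98.0 FPKM over the 4 libraries, and alone made up between 53.3% and 57.9% of the summed FPKM of the 9 genes. *Tgfb1* (25.6 FPKM), *Ctgf* (20.4 FPKM) and *Fst* (14.5 FPKM) followed, then *Tgfbr1* (8.44 FPKM), *Tgfb3* (5.22 FPKM), *Smad7* (2.72 FPKM), *Tgfb2* (1.70 FPKM) and *Inhba* (1.17 FPKM). The ranges over the libraries overlapped between *Tgfb1* and *Ctgf*, between *Ctgf* and *Fst*, between *Smad7* and *Tgfb2*, and between *Tgfb2* and *Inhba*. These neighbours therefore have no settled order, and the other neighbours in the order did not overlap in any library.

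Among the ligands, *Tgfb1* (chromosome 7, 25687002 to 25705077 of GRCm38) encodes the main TGF-beta of epithelia and leukocytes. Its level was 22.2 and 26.9 FPKM in Cont-IMQ skin, and 25.99 and 27.3 FPKM in 7KC-IMQ skin. The group means were 24.6 ± 3.30 and 26.6 ± 0.923 FPKM (SD, n = 2). Cont-IMQ replicate 1 was the lowest of the 4, and the other Cont-IMQ library lay between the 7KC-IMQ libraries. The difference between the groups was 0.12 on the log2(FPKM + 1) scale (standard error 0.11, 95% interval -0.18 to 0.42, adjusted p = 0.699 in limma), and it was -0.014 without Cont-IMQ replicate 1.

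*Tgfb2* (chromosome 1, 186622792 to 186705989) encodes an isoform with roles in development and in the regression of the hair follicle. It had 2.64 and 1.36 FPKM in Cont-IMQ skin and 1.53 and 1.28 FPKM in 7KC-IMQ skin. Cont-IMQ replicate 1 was thus higher than the other 3 libraries, which were close to each other. The hair follicle genes were lowest in Cont-IMQ replicate 1. They were highest in Cont-IMQ replicate 2, where *Tgfb2* lay between the 7KC-IMQ libraries. The part of hair follicle content in the level of *Tgfb2* was not tested. The group means were 2.00 ± 0.902 and 1.40 ± 0.175 FPKM (SD, n = 2). The difference of -0.29 (standard error 0.23, 95% interval -0.91 to 0.33, adjusted p = 0.638 in limma) rested on Cont-IMQ replicate 1. Without Cont-IMQ replicate 1 the difference was 0.024, and without Cont-IMQ replicate 2 it was -0.60, with an unadjusted p-value of 0.0152 and an adjusted p-value of 0.311 in limma. The values correspond to an estimated 197, 101, 122 and 94 reads.

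*Tgfb3* (chromosome 12, 86056745 to 86079041) encodes an isoform studied in palate fusion and scarless repair. Its levels were 5.20 and 5.25 FPKM in Cont-IMQ skin, on both sides of which lay the 7KC-IMQ libraries at 5.81 and 4.63 FPKM. The means were nearly equal, and the difference was -0.0073 with a 95% interval from -0.35 to 0.34 in limma. The gene overlaps *Ttll5* on the opposite strand, and 7.34% of its 75-base windows also occur in another annotated gene. *Tgfb2*, *Inhba*, *Fst* and *Ctgf* also overlap annotated genes of the opposite strand. Whether strand was used in the authors' counting is not given in the sources used here, although the library kit keeps strand.

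*Inhba* (chromosome 13, 16011851 to 16031621) was the least abundant of the 9 genes, at 0.836 and 1.19 FPKM in Cont-IMQ skin and 1.56 and 1.10 FPKM in 7KC-IMQ skin. These correspond to an estimated 78, 112, 157 and 102 reads. The highest library was 7KC-IMQ replicate 1 and the lowest was Cont-IMQ replicate 1, but 7KC-IMQ replicate 2 lay below Cont-IMQ replicate 2. The mean was 1.31 times higher in the 7KC-IMQ group, less than the factor of 1.43 between the Cont-IMQ libraries. The group means were 1.01 ± 0.252 and 1.33 ± 0.329 FPKM (SD, n = 2). On the log2(FPKM + 1) scale the difference was 0.21 (standard error 0.16, 95% interval -0.22 to 0.64, adjusted p = 0.624 in limma). With a pseudocount of 0.1 in place of 1, which compresses low levels less, it was 0.36. The difference depended on single libraries, at 0.064 without 7KC-IMQ replicate 1, 0.35 without 7KC-IMQ replicate 2, 0.081 without Cont-IMQ replicate 1 and 0.34 without Cont-IMQ replicate 2.

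Within the TGF-beta ligands, *Tgfb1* held 74.0% and 80.3% of the summed FPKM of *Tgfb1*, *Tgfb2* and *Tgfb3* in the Cont-IMQ libraries, and 78.0% and 82.2% in the 7KC-IMQ libraries. The predominance of *Tgfb1* was thus present in each library, and the shares overlapped between the groups. Of the activin chains, *Inhbb*, which encodes the inhibin beta B chain of activin B, was 9.18 to 15.8 times as abundant as *Inhba*. *Inhbb* had 13.2 and 13.3 FPKM in Cont-IMQ skin and 14.3 and 16.2 FPKM in 7KC-IMQ skin. It was higher without overlap, by 0.19 on the log2(FPKM + 1) scale, and did not pass the test (95% interval -0.063 to 0.44, adjusted p = 0.481 in limma). It was 0.10 without 7KC-IMQ replicate 2 and 0.11 with the same FPKM sum in each library.

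Of the receptors, *Tgfbr1* (chromosome 4, 47353222 to 47414931) had 8.07 and 9.21 FPKM in Cont-IMQ skin and 8.23 and 8.26 FPKM in 7KC-IMQ skin. Both 7KC-IMQ libraries lay between the Cont-IMQ libraries. *Tgfbr2* (chromosome 9, 116084293 to 116175360) had 96.2 and 98.9 FPKM in Cont-IMQ skin and 104 and 93.3 FPKM in 7KC-IMQ skin, so that here the Cont-IMQ libraries lay inside. The differences were -0.058 for *Tgfbr1* (95% interval -0.33 to 0.21) and 0.013 for *Tgfbr2* (95% interval -0.21 to 0.24) on the log2(FPKM + 1) scale in limma. The interval of *Tgfbr2* was the narrowest of the 9 genes, with an estimated 11012 reads or more in each library. The sign of its difference turned with scaling, to -0.068 with the same FPKM sum in each library and to -0.083 after quantile normalization. Per length, *Tgfbr2* was 10.7 to 12.6 times as abundant as *Tgfbr1*, with overlap between the groups.

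Of the inhibitors, *Fst* (chromosome 13, 114452290 to 114458951), whose product binds and blocks activins, had 13.6 and 14.7 FPKM in Cont-IMQ skin and 15.6 and 14.1 FPKM in 7KC-IMQ skin. The 4 libraries were close to each other, and the groups overlapped. The difference was 0.069 on the log2(FPKM + 1) scale (95% interval -0.18 to 0.32, adjusted p = 0.795 in limma) and was -0.0077 with the same FPKM sum in each library. Set against the activin chains, *Fst* was 0.813 to 1.01 times as abundant as *Inhba* and *Inhbb* together, with overlap between the groups.

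*Smad7*, which encodes the inhibitory Smad that blocks the type I receptor, had 1.88 and 3.07 FPKM in Cont-IMQ skin and 2.54 and 3.40 FPKM in 7KC-IMQ skin, from an estimated 116, 190, 168 and 207 reads. In each group replicate 2 was the higher library, by factors of 1.63 and 1.34, and the groups overlapped. The difference was 0.20 on the log2(FPKM + 1) scale (95% interval -0.37 to 0.78, adjusted p = 0.725 in limma), and it was -0.046 without Cont-IMQ replicate 1. *Smad6*, the related inhibitory Smad that acts mainly on the bone morphogenetic protein branch, had 1.52 and 2.65 FPKM in Cont-IMQ skin and 1.27 and 1.28 FPKM in 7KC-IMQ skin. It was lower without overlap, with a difference of -0.41, and did not pass the test (95% interval -0.95 to 0.12, adjusted p = 0.472 in limma). The size of this difference rested on the Cont-IMQ libraries. It was -0.15 without Cont-IMQ replicate 2, and -0.68 without Cont-IMQ replicate 1, with an unadjusted p-value of 0.00663 and an adjusted p-value of 0.280 in limma.

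*Ctgf* (chromosome 10, 24595442 to 24598683, listed as *Ccn2* in the annotation) encodes connective tissue growth factor, a matricellular protein and a target of both Smad and YAP with TEAD. It had 23.0 and 22.4 FPKM in Cont-IMQ skin and 14.4 and 21.8 FPKM in 7KC-IMQ skin. The groups did not overlap, but 7KC-IMQ replicate 2 lay only slightly below the Cont-IMQ libraries. The size of the difference came from 7KC-IMQ replicate 1. The means were 22.7 ± 0.424 and 18.1 ± 5.25 FPKM (SD, n = 2), and the difference of -0.34 did not pass the test (standard error 0.20, 95% interval -0.88 to 0.19, adjusted p = 0.531 in limma). Without 7KC-IMQ replicate 1 the difference was -0.059. Without 7KC-IMQ replicate 2 it was -0.63, with an unadjusted p-value of 0.00919 and an adjusted p-value of 0.969 in limma. Of the 75-base windows of *Ctgf*, 14.6% also occur in another annotated gene.

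7KC-IMQ replicate 1 was also the lowest library for genes of the immediate early response, which are induced within minutes of a stimulus. The summed level of 14 such genes was 2549 and 3005 FPKM in Cont-IMQ skin and 1603 and 2559 FPKM in 7KC-IMQ skin. *Fos* had 496 and 546 FPKM against 97.4 and 277 FPKM, *Fosb* had 29.7 and 85.8 FPKM against 3.83 and 44.9 FPKM, and *Atf3* had 54.1 and 135 FPKM against 23.9 and 60.3 FPKM. The groups overlapped in *Fosb* and *Atf3* and not in *Fos*. Of the 14 genes, 5 were lower and 1 was higher without overlap, together 42.9%, near the 46.8% of all genes tested. By direction the list leaned to lower levels, as the shares of all genes tested were 22.9% lower and 23.9% higher. Before adjustment, limma gave 4 of the 14 a p-value below 0.05, with 3 lower and 1 higher. These were 28.6% of the list, against 13% of all genes tested. The part of the immediate early response in the level of *Ctgf* was not tested.

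The 9 genes of a YAP and TEAD target list, *Ctgf* among them, did not share one pattern. *Ankrd1*, a nuclear ankyrin repeat protein, had 24.9 and 42.5 FPKM in Cont-IMQ skin and 7.24 and 6.47 FPKM in 7KC-IMQ skin. Its difference of -2.10 was the largest of the list, with an unadjusted p-value of 7.1e-04 and an adjusted p-value of 0.331 in limma. *Crim1*, a membrane protein that binds growth factors, overlapped at 7.10 and 8.65 FPKM against 6.29 and 7.14 FPKM. *Cyr61*, which encodes a matricellular protein of the same family as *Ctgf*, instead differed by replicate, at 87.3 and 169 FPKM in Cont-IMQ skin and 93.2 and 175 FPKM in 7KC-IMQ skin. Of the list, 5 genes were lower and 1 higher without overlap, where the shares over all genes tested were 22.9% lower and 23.9% higher.

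**Figure D2:**
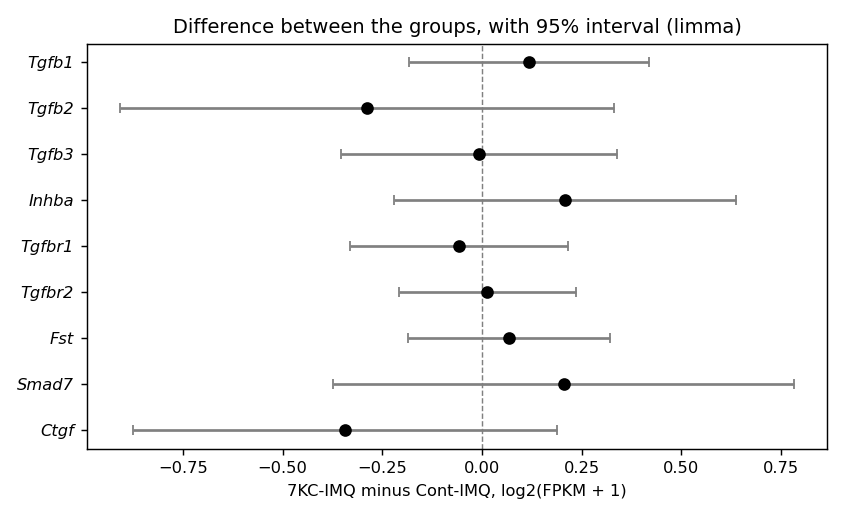
Difference between the 7KC-IMQ and Cont-IMQ groups on the log2(FPKM + 1) scale (horizontal axis) for the 9 genes, with points for the estimate and bars for the 95% interval in limma. Every interval includes 0, from the narrowest in *Tgfbr2* (-0.21 to 0.24) to the widest in *Tgfb2* (-0.91 to 0.33).

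The other genes of the pathway were taken from a list of 63 genes, of which 61 were tested. *Inhbc* and *Inhbe*, which encode inhibin chains of the liver, were listed at 0 in all 4 libraries. None of the 61 passed an adjusted p-value of 0.05 in limma. At an unadjusted p-value under 0.05, 6 were higher and 1 was lower in the 7KC-IMQ group, together 11.5% of the 61. Of all genes tested, 7.5% were higher and 5.47% lower in this way, together 13%. Without overlap, 11 were higher and 11 lower, together 36.1% against 46.8% of all genes tested. The median difference of the 61 genes was 0.067 on the log2(FPKM + 1) scale. The count of 7 depended on single libraries, and the share of all genes tested moved as well when a library was left out.

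**Figure D3:**
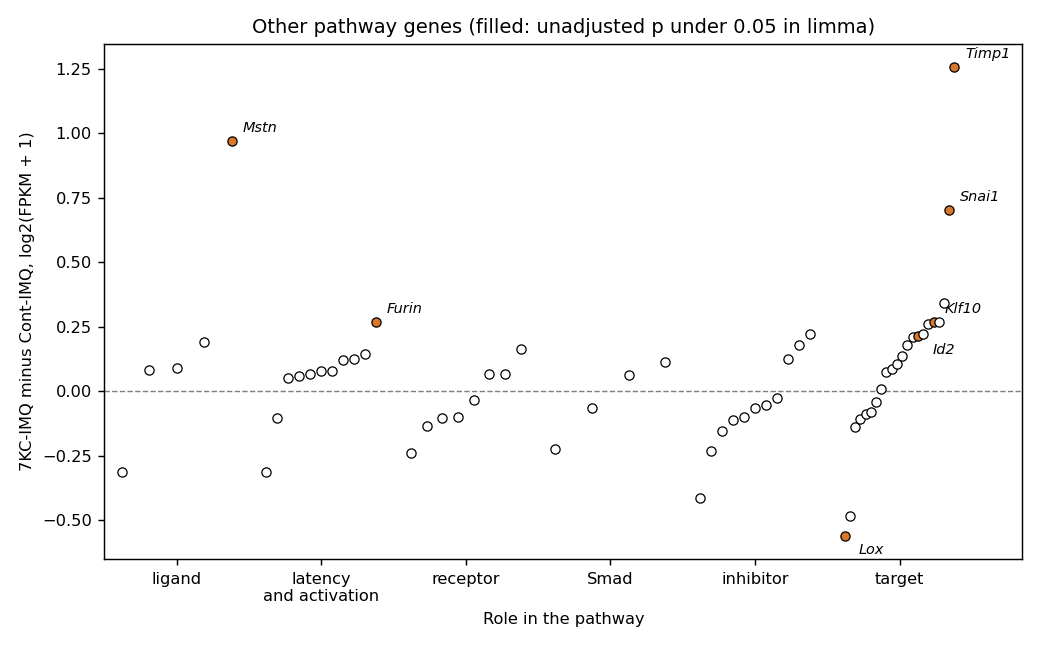
Difference between the 7KC-IMQ and Cont-IMQ groups on the log2(FPKM + 1) scale (vertical axis) for the 61 other pathway genes tested, by role and sorted within each role. Filled points are the 7 genes with an unadjusted p-value under 0.05, of which *Timp1* (1.25) and *Mstn* (0.97) lie highest and *Lox* (-0.56) lowest.

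Among the other ligands, *Mstn*, which encodes myostatin, a ligand made by skeletal muscle that restrains muscle growth, had 4.19 and 4.15 FPKM in Cont-IMQ skin and 11.4 and 7.25 FPKM in 7KC-IMQ skin. The Cont-IMQ libraries were nearly equal and both 7KC-IMQ libraries were higher. The difference was 0.97 (standard error 0.21, adjusted p = 0.354 in limma). The summed level of 8 skeletal muscle genes did not move the same way, with 8138 and 7760 FPKM against 6735 and 7920 FPKM. Of the 8, 2 were higher and 2 lower without overlap, together 50%, near the 46.8% of all genes tested. Of the fast myosins among them, *Myh4* had 125 and 62.9 FPKM against 427 and 329 FPKM, and *Myh1* had 695 and 753 FPKM against 322 and 568 FPKM. The part of muscle in the level of *Mstn* was not tested. *Gdf15*, a stress-induced ligand, was lower without overlap, at 1.86 and 2.33 FPKM against 1.39 and 1.58 FPKM, a difference of -0.31 (adjusted p = 0.416 in limma).

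Of the 11 genes of latency and activation, *Furin*, the protease that cleaves the TGF-beta precursor, had 44.8 and 45.8 FPKM in Cont-IMQ skin and 51.7 and 58.0 FPKM in 7KC-IMQ skin (difference 0.27, adjusted p = 0.365 in limma). *Thbs1*, which encodes the activator thrombospondin, varied more within groups than between them, at 40.3 and 97.4 FPKM against 39.7 and 63.7 FPKM. *Ltbp2*, a latent TGF-beta binding protein of elastic fibres, overlapped as well, at 1.19 and 0.899 FPKM against 1.12 and 1.41 FPKM. None of the 11 was lower without overlap, and 3 were higher (27.3%, against 23.9% higher and 22.9% lower over all genes tested).

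Of the 8 other receptors, *Acvr2a*, which binds activin, was lower without overlap at 10.5 and 9.41 FPKM against 8.37 and 8.15 FPKM, a difference of -0.24 (95% interval -0.50 to 0.019, adjusted p = 0.408 in limma). *Acvrl1*, a receptor of endothelium, was higher without overlap at 8.05 and 7.47 FPKM against 9.42 and 8.22 FPKM (difference 0.16, adjusted p = 0.575 in limma). *Acvr2b*, also an activin receptor, overlapped at 1.39 and 1.45 FPKM against 1.10 and 1.41 FPKM. Of the 4 genes around the Smads, *Smad2*, which the receptors phosphorylate, was higher without overlap at 7.61 and 6.80 FPKM against 7.63 and 8.09 FPKM. *Zfyve9*, which encodes an adaptor that brings Smad proteins to the receptor, was lower without overlap at 24.2 and 21.2 FPKM against 19.3 FPKM in both 7KC-IMQ libraries. Its difference was -0.22 (adjusted p = 0.416 in limma). *Smad4*, the common partner of the Smads, overlapped at 22.4 and 24.3 FPKM against 23.0 and 21.5 FPKM. Without overlap were 37.5% of the 8 receptors and 50% of the 4 Smad genes, against 46.8% of all genes tested.

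Among the 11 other inhibitors none was higher and 5 were lower without overlap, together 45.5%, near the 46.8% of all genes tested (22.9% lower). The most abundant was *Dcn*, whose product decorin binds TGF-beta in the matrix and which is also one of the fibroblast markers, with 1157 and 1056 FPKM in Cont-IMQ skin and 970 and 911 FPKM in 7KC-IMQ skin (difference -0.23, adjusted p = 0.441 in limma). *Pmepa1*, a feedback inhibitor, had 8.16 and 13.6 FPKM against 12.6 and 12.4 FPKM, and its lowest library was again Cont-IMQ replicate 1. None of the 11 had an unadjusted p-value under 0.05 in limma.

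The 22 other targets, the largest role, held 5 of the 7 genes with an unadjusted p-value under 0.05 in limma. These were 22.7% of the targets, against 13% of all genes tested. *Timp1*, which encodes an inhibitor of matrix metalloproteinases that inflammatory cytokines also induce, had 19.0 and 14.2 FPKM in Cont-IMQ skin and 40.4 and 40.8 FPKM in 7KC-IMQ skin. Both 7KC-IMQ libraries were above both Cont-IMQ libraries and nearly equal to each other, and the ratio of the means was 2.45. The difference was 1.25 (standard error 0.15, 95% interval 0.86 to 1.65, unadjusted p = 5.8e-04, adjusted p = 0.331 in limma), and it stayed between 1.05 and 1.46 with each library left out in turn. *Snai1*, a transcriptional repressor of epithelial genes, had 4.52 and 5.04 FPKM against 9.47 and 7.45 FPKM, a difference of 0.70 (standard error 0.14, adjusted p = 0.352 in limma).

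*Lox*, which encodes lysyl oxidase, the enzyme that cross-links collagen, went the other way, with 25.8 and 26.1 FPKM in Cont-IMQ skin and 19.3 and 15.5 FPKM in 7KC-IMQ skin. Its difference was -0.56 (standard error 0.12, adjusted p = 0.354 in limma). *Klf10*, an early TGF-beta response gene (24.9 and 24.7 against 27.9 and 32.3 FPKM), and *Id2*, an inhibitor of helix-loop-helix factors (24.4 and 25.2 against 29.1 and 28.8 FPKM), were higher without overlap by 0.27 and 0.21. With the same FPKM sum in each library, the unadjusted p-values of *Furin*, *Id2* and *Klf10* in limma were 0.0644, 0.200 and 0.0796. The remaining 17 targets had an unadjusted p-value over 0.05, the matrix genes *Col1a1*, *Col1a2*, *Col3a1*, *Fn1* and *Postn* among them.

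**Figure D4:**
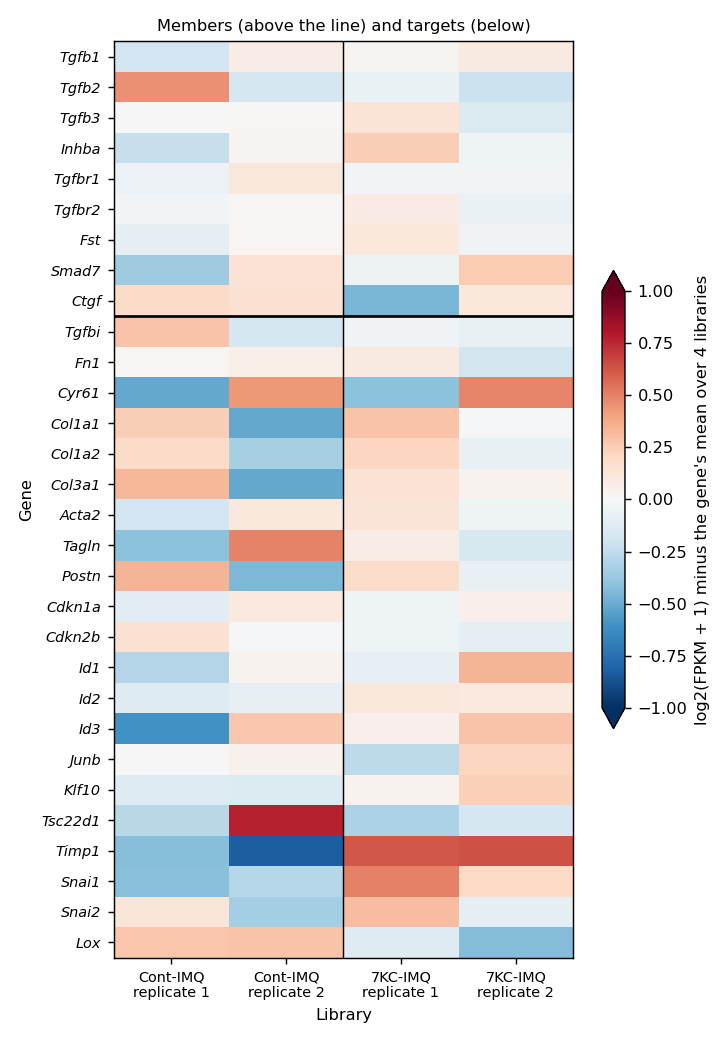
log2(FPKM + 1) minus the mean of the gene over the 4 libraries (colour, from blue below to red above) for the 9 genes above the line and other targets below it, by library. *Timp1* and *Snai1* are above their mean in both 7KC-IMQ libraries, *Lox* in both Cont-IMQ libraries, and *Cyr61* in replicate 2 of each group.

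Several targets differed between replicates of a group more than between the groups. *Col1a1*, the main collagen chain of the dermis, had 797 and 471 FPKM against 819 and 665 FPKM, with Cont-IMQ replicate 2 lowest, the library in which the hair follicle genes were highest. *Tsc22d1* had its highest level in that same library, at 145 FPKM against 69.8, 67.9 and 75.5 FPKM in the others. The part of hair follicle content in these values was not tested.

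By their profiles over the 4 libraries, each centred on its own mean, each of the 9 genes had a nearest gene among the others and the pathway list, by root mean square difference on the log2(FPKM + 1) scale. Among the ligands, *Tgfb1* was nearest to *Inha* (0.028), *Tgfb2* to *Tgfbi* (0.11), *Tgfb3* to *Fn1* (0.043) and *Inhba* to *Tgif2* (0.045). Among receptors and inhibitors, *Tgfbr1* was nearest to *Smurf2* (0.028), *Tgfbr2* to *Eng* (0.029), *Fst* to *Tgfbr2* (0.036) and *Smad7* to *Id1* (0.079). *Ctgf* was nearest to *Junb*, at 0.16 against a spread of 0.26 in *Ctgf* itself. With 4 libraries these are descriptions of likeness only.

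The markers of cell types that could carry these genes moved in different ways, and in bulk tissue fewer cells of a type and less RNA per cell cannot be told apart. Of 7 endothelial genes, 6 were lower without overlap and with an unadjusted p-value under 0.05, where the shares of all genes tested were 22.9% and 5.47%. Their summed level was 57.8 and 64.5 FPKM in Cont-IMQ skin and 48.2 and 46.2 FPKM in 7KC-IMQ skin. *Eng*, which encodes the endothelial co-receptor endoglin, overlapped at 16.1 and 16.4 FPKM against 16.5 and 15.2 FPKM. All 6 neutrophil genes tested were higher without overlap, against 23.9% of all genes tested, with sums over the list of 19.8 and 23.5 FPKM against 32.6 and 35.1 FPKM. Of 7 suprabasal keratinocyte genes, 3 were lower without overlap and with an unadjusted p-value under 0.05 in limma, and 0 were higher in either way. Of 7 basal keratinocyte genes, 2 were lower in both ways, and 2 were higher without overlap. The shares of all genes tested were 22.9% and 5.47% lower, and 23.9% higher without overlap. In sum, both keratinocyte lists overlapped between the groups. The 9 fibroblast genes overlapped in sum, at 3604 and 2656 FPKM against 3403 and 3010 FPKM. The 9 macrophage and monocyte genes summed to 408 and 462 FPKM against 374 and 378 FPKM, and the 7 T cell genes in the files to 17.8 and 15.6 FPKM against 14.2 and 11.4 FPKM. Both sums were lower without overlap. Of the 9 macrophage and monocyte genes, 3 were lower and 0 higher without overlap, and 1 was lower with an unadjusted p-value under 0.05 in limma. Of the 6 T cell genes tested, 2 were lower in both ways, and 1 was higher without overlap. The part of these cells in the levels of the pathway genes was not tested.

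The stretches of 250 bases before the RefSeq start sites of *Timp1* and *Snai1* are shown because these were the 2 targets with the largest positive differences, a choice made after their values were seen. They are taken from GRCm38.p6, on the plus strand, at chrX:20869916-20870165 and chr2:167537945-167538194, and capitals mark the letters GGAATG of the TEAD motif.
Timp1: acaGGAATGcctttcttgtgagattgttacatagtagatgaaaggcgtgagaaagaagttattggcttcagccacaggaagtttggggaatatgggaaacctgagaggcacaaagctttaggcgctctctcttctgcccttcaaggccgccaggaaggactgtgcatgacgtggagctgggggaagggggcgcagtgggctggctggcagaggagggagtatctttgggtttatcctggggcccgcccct
Snai1: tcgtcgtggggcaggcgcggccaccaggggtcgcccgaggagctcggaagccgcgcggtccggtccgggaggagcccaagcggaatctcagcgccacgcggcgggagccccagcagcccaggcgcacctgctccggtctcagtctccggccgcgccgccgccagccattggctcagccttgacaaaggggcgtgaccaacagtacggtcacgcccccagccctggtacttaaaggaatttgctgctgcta
On both strands, the search covered the TEAD letters GGAATG, the SMAD box CAGAC, the SMAD palindrome GTCTAGAC, which holds the letters of neither of the first 2, and the AP-1 letters TGANTCA. *Timp1* held 1 match to GGAATG, which 12.6% of 32851 such windows hold, and *Snai1* held none of the 4. Of the 9 genes, 5 had windows that were searched, 6 windows in all. *Smad7* was left out of the search, so nothing is said here of its window. CAGAC was found in 3 of these 6 windows, those of *Tgfb2*, *Tgfbr2* and the downstream start of *Tgfbr1*, against 42.2% of all windows. The other motifs were in none of the 6, where 0.167% of all windows hold GTCTAGAC and 6.75% hold TGANTCA. These are matches of letters and not sites of binding.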

How the data were processed

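RNA of dorsal skin was sequenced in 4 libraries, 2 for each diet group, as 75-base single-end reads. The authors mapped the reads to mm10 and deposited FPKM values, 1 per gene symbol and library, without pooling. Per the labels, the submitters' processing notes name TopHat2 2.1.1, Bowtie2 2.2.8, SAMtools 0.1.18 and Cuffdiff 2.2.1, while the paper's methods name Cufflinks and other versions. How reads shared by several genes were treated is not given in the sources used here.

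From the deposited FPKM values, log2(FPKM + 1) was computed. A filter kept genes that averaged 0.1 FPKM or more, and the groups were compared in limma 3.58.1 (R 4.3.3) by lmFit and eBayes with a variance trend, with Benjamini-Hochberg adjustment over all 15896 genes. Fold changes on this scale understate those of low genes. No count model was used because counts are not part of the files. Depth was estimated as the number of reads at which low values of genes with a single transcript came nearest to whole reads. Between 71.1% and 75.3% of these came within 0.1 of a whole read, against 20% by chance. Estimated reads use the longest GENCODE M21 transcript (GRCm38, which is mm10), less 199 bases, and are approximate for genes with several transcripts. They cover counting error only. Promoters came from RefSeq. The fit was tested on simulated data. The 9 genes and all lists were chosen with earlier results of these data known. Named pathway genes were the 3 with the largest difference in each role among genes averaging 1 FPKM or more, and those with an unadjusted p-value under 0.05. Others were named after their values were seen. The alternatives tried were adding 0.1 in place of 1, filtering at 1 FPKM or not at all, 3 other scalings, no variance trend, a replicate block and leaving out each library. One listed target gene is counted but its values are not reported here.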

Additional observations from a re-analysis of the deposited data

How the results depend on the processing

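None of the 9 genes passed an adjusted p-value of 0.05 in limma under any of the 12 alternatives. The count with an unadjusted p-value under 0.05 lay between 0 and 1 with each library left out, and the 1 was *Tgfb2* without Cont-IMQ replicate 2 and *Ctgf* without 7KC-IMQ replicate 2. The count without overlap was 1 under every scaling and lay between 2 and 7 with a library left out, where 66.8% to 77.6% of all genes tested do not overlap because a group holds a single library. That library is then assumed to vary like the others. The count of other pathway genes with an unadjusted p-value under 0.05 in limma lay between 6 and 8 with all libraries kept. The share of all genes tested lay between 9.56% and 14.1% in these fits. With a library left out, both the count and this share moved.

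The direction held under all alternatives in *Inhba* and *Ctgf*, and changed in the other 7 genes. Over the 4 fits that leave out a library, the log2 difference ran from -0.014 to 0.25 in *Tgfb1*, -0.60 to 0.024 in *Tgfb2*, -0.14 to 0.13 in *Tgfb3*, -0.14 to 0.027 in *Tgfbr1*, -0.064 to 0.090 in *Tgfbr2*, -0.00012 to 0.14 in *Fst* and -0.046 to 0.45 in *Smad7*. In *Inhba* it ran from 0.064 to 0.35 and in *Ctgf* from -0.63 to -0.059. Among named pathway genes it ran from -0.94 to 0.31 in *Thbs1* and from -0.11 to 0.56 in *Pmepa1*, and the other 18 kept their direction. Quantile normalization gave 0.033 in *Tgfb3* and -0.083 in *Tgfbr2*, and the same FPKM sum in each library gave -0.068 in *Tgfbr2* and -0.0077 in *Fst*. With the replicate number as a replicate block, 0 of the 9 genes and 6 of the 61 pathway genes had an unadjusted p-value under 0.05 in limma. Of all genes tested, 11% had one in that fit. No source ties same-numbered libraries to a litter or day, and over genes the difference of replicate 1 from replicate 2 correlated between the groups by 0.065. The design, with 2 libraries in each group, limits what differences could be detected.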
